A study of Mus musculus with 4 samples.

Results

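Kinetochore, centromere and spindle checkpoint genes were compared between 4T1 cells with high and with low mitochondrial membrane potential (MMP). A list of 47 such genes was searched by current and older gene symbol in the table of 20197 genes, and all 47 were found in it. 4T1 is a mouse mammary tumor cell line, here with no genetic change or drug in either group. Both groups were stained with MitoSpy Red at 20 nM, a dye that collects in mitochondria with a high membrane potential, and the 5% of cells at the bright end were sorted as high MMP and the 5% at the dim end as low MMP. RNA from 100000 cells per sample was used, with 2 samples of high MMP cells (high MMP 1 and 2) and 2 of low MMP cells (low MMP 1 and 2). All results are thus from 1 cell line, sorted on dye brightness alone. The samples of a group are counted by the study as independent experiments, while the labels do not describe the cultures.

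The kinetochore is the protein structure that assembles on each centromere and binds spindle microtubules in mitosis. Its foundation is chromatin that carries the histone H3 variant CENP-A. On this sits the constitutive centromere-associated network (CCAN), and on the CCAN sit the KNL1, MIS12 and NDC80 complexes, which reach the microtubule. Kinetochores without a proper attachment recruit checkpoint proteins that hold back anaphase, and the chromosomal passenger complex with its kinase Aurora B releases wrong attachments. Transcripts of many of these genes are known to peak in G2 and mitosis in dividing cells, while others are made more evenly through the cycle.

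Levels are given as normalized reads, scaled by the authors so that a library adds up to 20000000. A difference is the mean log2(value + 1) of high MMP minus that of low MMP. The libraries held 22591970 to 26395015 recovered reads, and between 166 and 9330 of them fell on any 1 of the 47 genes in a library. Epithelial markers were present (6 of 6 in the table, summed level 36707 to 49710 over the libraries). The summed level was 7 to 14 for leukocyte markers (2 of 5 in the table, with no row for *Cd3e* or *Lyz2*), 2 to 6 for endothelial markers (2 of 3, no row for *Kdr*), and 334 and 374 in high against 548 and 604 in low MMP cells for fibroblast markers (3 of 4, no row for *Lum*). *Pdgfra* made up most of the last, and the part of this list in the results was not tested. Mitochondrially encoded mRNAs took 1.27% of reads in high MMP 1 and 2.02% to 2.24% in the other libraries. The high MMP libraries also differed from each other with transcript length, so some values that moved when 1 of these libraries was left out are also given without it. A value given only once can also have moved.

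To show the sequences next to the measurements, 4 promoters were chosen after the values were seen, 3 from genes higher in high MMP cells and 1 from a gene that was not. *Spc25* encodes a subunit of the NDC80 complex, *Ttk* the kinase MPS1 that starts checkpoint signalling and *Bub3* an adaptor of checkpoint proteins, while *Cenph* encodes a CCAN subunit. The windows run from 250 bases before to 50 after the RefSeq transcription start on GRCm38.p6, and are written 5′ to 3′ on the strand of the gene. Capitals mark the letters of 3 motifs found on either strand: TTTGAA or TTCGAA (the cell cycle genes homology region, CHR, which the DREAM and MuvB complexes bind in promoters of mitotic genes), CCAAT (bound by NF-Y), and TTCCCGC or TTGGCGC (E2F cores). The *Spc25* window is chr2:69206164-69206463 on the minus strand, that of *Ttk* is chr9:83834439-83834738 on the plus strand, that of *Bub3* is chr7:131560120-131560419 on the plus strand, and that of *Cenph* is chr13:100775850-100776149 on the minus strand.
*Spc25*: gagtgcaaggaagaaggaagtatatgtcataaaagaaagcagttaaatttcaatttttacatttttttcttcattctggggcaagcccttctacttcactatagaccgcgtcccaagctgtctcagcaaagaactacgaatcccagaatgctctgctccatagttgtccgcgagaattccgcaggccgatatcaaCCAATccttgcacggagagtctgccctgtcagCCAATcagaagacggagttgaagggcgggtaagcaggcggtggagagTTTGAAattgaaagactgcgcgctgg
*Ttk*: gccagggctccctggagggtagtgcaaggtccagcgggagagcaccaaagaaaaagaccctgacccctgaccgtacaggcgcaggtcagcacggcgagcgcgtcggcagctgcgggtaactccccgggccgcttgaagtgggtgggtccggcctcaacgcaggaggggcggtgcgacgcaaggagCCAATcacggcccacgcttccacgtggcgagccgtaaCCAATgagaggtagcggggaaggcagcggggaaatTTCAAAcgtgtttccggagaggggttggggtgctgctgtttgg
*Bub3*: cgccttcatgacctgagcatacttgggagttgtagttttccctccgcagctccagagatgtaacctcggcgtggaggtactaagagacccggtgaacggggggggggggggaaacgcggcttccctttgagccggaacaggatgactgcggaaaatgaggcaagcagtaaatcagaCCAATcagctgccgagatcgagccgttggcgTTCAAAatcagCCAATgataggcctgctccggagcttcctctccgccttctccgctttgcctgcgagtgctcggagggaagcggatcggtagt
*Cenph*: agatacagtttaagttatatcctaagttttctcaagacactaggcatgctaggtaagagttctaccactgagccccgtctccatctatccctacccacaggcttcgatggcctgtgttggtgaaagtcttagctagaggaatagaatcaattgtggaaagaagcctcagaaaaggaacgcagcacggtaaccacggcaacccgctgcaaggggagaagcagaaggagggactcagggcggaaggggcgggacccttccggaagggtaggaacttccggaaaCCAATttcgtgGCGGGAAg
The first 3 windows hold the same motifs, a pair of CCAAT boxes and 1 CHR. Measured to the first base of each motif, the CCAAT boxes lie at -55 and -23 in *Spc25*, at -65 and -28 in *Ttk* and at -74 and -32 in *Bub3*, and the CHR at 24, 7 and -43. The CHR thus follows both CCAAT boxes in *Spc25* and *Ttk* and lies between them in *Bub3*. *Bub3* has another RefSeq start, from which its CCAAT boxes lie at -198 and -156 and the CHR at -167. The *Cenph* window has no CHR, a CCAAT at 31 and an E2F core at 42. These chosen windows do not stand for the other genes. *Nuf2*, *Sgo2a* and *Cenpi* were higher in high MMP cells and had no CHR in their windows. *Kntc1*, *Cenpm* and *Cenpw* had the lower mean in high MMP cells, and their windows held both a CHR and a CCAAT. Counts over all windows of the gene list are given further below.

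Summed over the 47 genes, 43.6 and 47.2 of each 10000 reads came from kinetochore, centromere and checkpoint genes in high MMP 1 and 2, against 36.3 and 37.2 in low MMP 1 and 2. The groups did not overlap. The mean share was 45.4 ± 2.56 for high MMP and 36.8 ± 0.608 for low MMP (SD, n = 2 each), a ratio of 1.23. High MMP cells had the higher mean for 38 of the 47 genes and the lower mean for 9. The median difference was 0.17 (range -0.19 to 0.90), beside -0.04 over all genes and -0.03 over the 9999 genes that averaged 100 or more. In these sorted populations, more cells in G2 and mitosis and more transcript per cell cannot be told apart.

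No gene of the 47 passed an adjusted p of 0.05 in limma, and neither did any other gene (0.00% of all genes). The smallest adjusted p was 0.472. At an unadjusted p under 0.05, limma had 16 of the 47 as higher in high MMP cells, where 3.95% of all genes met the same rule, and 0 as lower, where 6.01% of all genes did. The count of 16 became 10 when the variance was modelled without a trend. All genes that met the rule in either direction then numbered 1980, beside 2011 with the trend. The count of 16 also moved, both ways, with a library left out, and so did the number of all genes that met the rule. On the recovered reads, edgeR's quasi-likelihood test called 0 (0.00% of all genes) at an adjusted p under 0.05, with 17 higher (3.22% of all genes) and 0 lower at an unadjusted p under 0.05. DESeq2 called 9 as higher, where 0.663% of the 12365 genes with an adjusted p were higher, and 0 as lower (0.291%). These 9 were *Cenpl*, *Spc25*, *Bub3*, *Ttk*, *Cenpf*, *Sgo1*, *Sgo2a*, *Incenp* and *Aurkb*.

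Values of single libraries were compared without a model. For 31 of the 47 genes both high MMP values lay above both low MMP values (13.5% of all genes did), and for 1, *Kntc1*, both lay below (24.5% of all genes). Under median-of-ratios scaling, 32 of the 47 genes were higher and 0 lower without overlap. The shares of all genes above hold for the deposited scaling, and those under median-of-ratios scaling are not given. Counts without overlap with a library left out are given only in the last section, since fewer samples separate more easily. With 2 samples per group, an exact permutation test cannot give a two-sided p below 0.333 for any single gene.

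**Figure D1:**
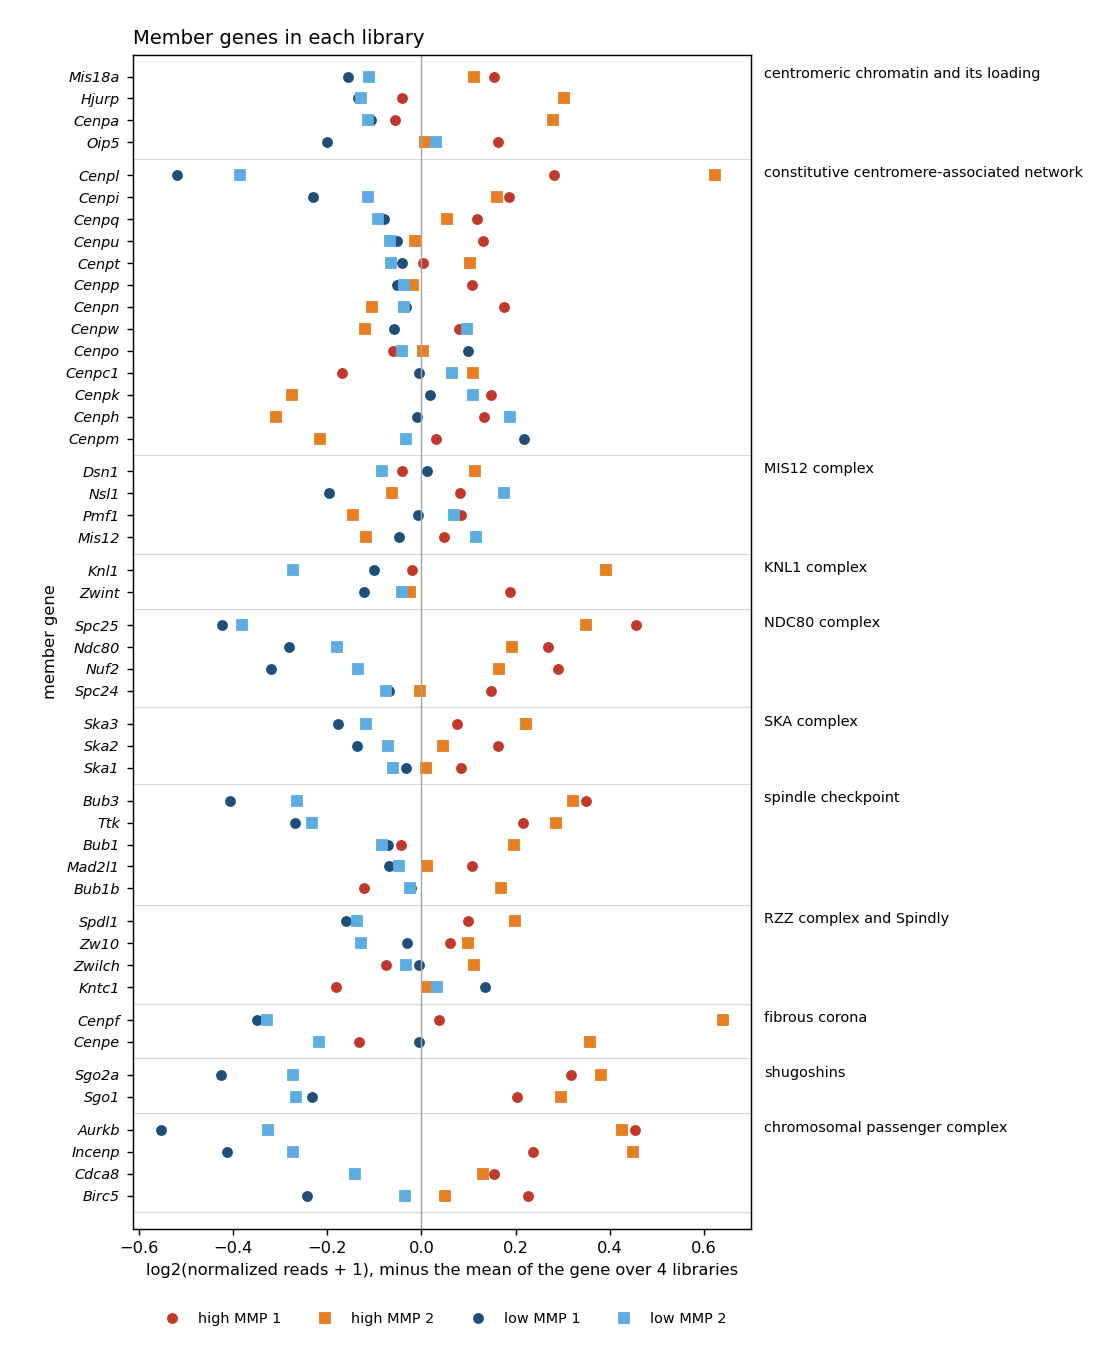
Level of each of the 47 genes in each library, as log2(normalized reads + 1) minus the mean of that gene over the 4 libraries (x axis), with genes grouped by subcomplex (y axis). Circles are replicate 1 and squares replicate 2, warm colors high MMP and blue low MMP. The warm points lie right of both blue points for 31 genes, among them every gene of the NDC80 complex, the SKA complex, the shugoshins and the chromosomal passenger complex, and no gene of the MIS12 complex.

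Centromeric chromatin and its loading factors were examined first. All 4 genes were higher in high MMP cells, with a median difference of 0.24, and 1 had an unadjusted p under 0.05. *Cenpa* (ENSMUSG00000029177, GRCm38 chromosome 5, 30666777 to 30674830, plus strand) encodes CENP-A itself. It had 3283 and 4141 normalized reads in high MMP 1 and 2 and 3170 and 3155 in low MMP 1 and 2. The groups were apart, but high MMP 1 lay close to the low MMP libraries and high MMP 2 alone stood clearly above them. The means were 3712 ± 607 and 3162 ± 10.3 (SD, n = 2 each), a difference of 0.22 (SE 0.14; limma adjusted p 0.711) that stood at 0.05 without high MMP 2. *Hjurp*, the chaperone that deposits CENP-A, differed by 0.26 with the same high MMP library on top (0.09 without it). *Mis18a*, a subunit of the complex that licenses loading, differed by 0.27 (unadjusted p 0.0286 in limma), with both high MMP libraries above both low ones. *Oip5*, which encodes the partner MIS18 beta, differed by 0.17 and its groups overlapped. *Oip5* shares 172 exonic bases with *Nusap1* on the opposite strand, whose own difference was 1.22, and the labels do not say whether counting used the strand. In all, 13 of the 47 genes share exonic bases with a gene on the opposite strand.

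The CCAN held *Cenpl*, 1 of the largest differences of the 47 genes, as well as most of those that were lower. Of its 13 genes, 7 had the higher and 6 the lower level in high MMP cells, the median difference was 0.07 (0.03 without high MMP 1), and 2 had an unadjusted p under 0.05, *Cenpl* and *Cenpi*. *Cenpl* (ENSMUSG00000026708, chromosome 1, 161070713 to 161086724, plus strand) encodes the subunit that pairs with CENP-N, the reader of CENP-A nucleosomes. It had 646 and 819 normalized reads in high MMP 1 and 2 and 371 and 407 in low MMP 1 and 2. Both high MMP values exceeded both low values by more than the gap between the high MMP libraries. The means were 733 ± 122 and 389 ± 25.4 (SD, n = 2 each), a difference of 0.90 (SE 0.15) that stood at 0.73 without high MMP 2, and the adjusted p was 0.472 in limma and 0.000296 in DESeq2. *Cenpi*, which works with CENP-H, CENP-K and CENP-M, differed by 0.35 (unadjusted p 0.013 in limma), with 1030 and 1012 against 772 and 837.

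The partners of *Cenpi* lay on the other side of zero. *Cenpm* (ENSMUSG00000068101, chromosome 15, 82233779 to 82244748, minus strand) had 165 and 139 in high MMP 1 and 2 and 188 and 158 in low MMP 1 and 2, *Cenph* (ENSMUSG00000045273, chromosome 13, 100759674 to 100775899, minus strand) had 746 and 549 against 676 and 775, and *Cenpk* (ENSMUSG00000021714, chromosome 13, 104228611 to 104252392, plus strand) had 314 and 234 against 287 and 306. In all 3 the groups overlapped, and high MMP 2 was the lowest library. The differences were -0.19 (SE 0.17) for *Cenpm*, -0.18 (SE 0.18) for *Cenph* and -0.13 (SE 0.17) for *Cenpk*, with adjusted p-values of 0.811, 0.855 and 0.898 in limma. Without high MMP 2, *Cenph* stood at 0.04 and *Cenpk* at 0.08, so the sign of both rests on that library. *Cenpm* kept its sign, at -0.06 without high MMP 2 and -0.31 without high MMP 1.

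*Cenpc1* (ENSMUSG00000029253, chromosome 5, 86012024 to 86065583, minus strand) encodes CENP-C, the blueprint protein that bridges CENP-A chromatin and the MIS12 complex. It had 849 and 1029 in high MMP 1 and 2 and 950 and 998 in low MMP 1 and 2, so the low MMP values fell between the high MMP values. It differed by -0.06 (SE 0.12; limma adjusted p 0.952), and it stood at 0.08 without high MMP 1. The other CCAN genes stayed between -0.06 and 0.17: *Cenpq* at 0.17, *Cenpu* at 0.12, *Cenpt* at 0.11, *Cenpp* at 0.09, *Cenpn* at 0.07, *Cenpw* at -0.04 and *Cenpo* at -0.06. The sign of *Cenpw* turned with median-of-ratios scaling, edgeR without a block and DESeq2, and that of *Cenpo* with quantile normalization. Per kilobase of principal transcript, mean levels in the CCAN ran from 87.9 normalized reads for *Cenpo* to 576 for *Cenpn*, against 2340 for *Cenpa*. *Cenpo* shares 1380 exonic bases with *Adcy3* and *Cenpu* 1069 with *Primpol*, both on the opposite strand.

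Next, the microtubule-binding layer was compared, in which the 3 complexes did not look alike. The MIS12 complex, which joins the layer to the CCAN, had 2 genes higher and 2 lower, a median difference of -0.02 and no gene whose groups were apart. This median stood at -0.10 without high MMP 1 and at -0.13 without low MMP 1. Its sign turned without high MMP 2 (0.03) and without low MMP 2 (0.02). It also turned with median-of-ratios scaling (0.021), quantile normalization (0.014), edgeR (0.015) and DESeq2 (0.019). *Mis12* (ENSMUSG00000040599, chromosome 11, 71019611 to 71027371, plus strand) had 1300 and 1160 in high MMP 1 and 2 and 1218 and 1364 in low MMP 1 and 2. It differed by -0.07 (SE 0.11; limma adjusted p 0.919), and it stood at 0.01 without high MMP 2 or without low MMP 2. *Dsn1*, *Nsl1* and *Pmf1*, the other subunits, differed by 0.07, 0.02 and -0.06.

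In the NDC80 complex, the rod that grips the microtubule, all 4 genes were higher in high MMP cells with groups apart, 3 had an unadjusted p under 0.05 and the median difference was 0.46. *Spc25* (ENSMUSG00000005233, chromosome 2, 69193895 to 69206194, minus strand), the gene of smallest p among the 47, had 890 and 827 normalized reads in high MMP 1 and 2 and 484 and 498 in low MMP 1 and 2. Its replicates agreed closely, and the high MMP values were far above the low ones. The means were 859 ± 44.9 and 491 ± 10.3 (SD, n = 2 each), a difference of 0.80 (SE 0.09) with an unadjusted p of 0.000559 and an adjusted p of 0.472 in limma, and an adjusted p of 0.000338 in DESeq2. *Ndc80* (ENSMUSG00000024056, chromosome 17, 71496100 to 71526857, minus strand), the subunit that carries the microtubule-binding head, had 2106 and 1995 against 1438 and 1543. It differed by 0.46 (SE 0.08; adjusted p 0.472 in limma and 0.0892 in DESeq2). *Nuf2*, the partner of *Ndc80* at the same end of the rod, differed by 0.45 (unadjusted p 0.0109 in limma). *Spc24*, the partner of *Spc25* at the end that faces the centromere, differed by 0.14 (unadjusted p 0.175 in limma), or by 0.07 without high MMP 1 and 0.22 without high MMP 2. Per kilobase of principal transcript the mean levels were 804 for *Ndc80* and 792 for *Nuf2*, but 1100 for *Spc24* and 565 for *Spc25*.

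The KNL1 complex is the platform for BUB proteins. *Knl1* (ENSMUSG00000027326, chromosome 2, 119047119 to 119105501, plus strand) had 1798 and 2392 in high MMP 1 and 2 and 1698 and 1509 in low MMP 1 and 2. The groups were apart, with high MMP 2 well above the rest. It differed by 0.37 (SE 0.17; limma adjusted p 0.6), or by 0.17 without high MMP 2, and *Zwint*, which binds it, differed by 0.16, or by 0.06 without high MMP 1 and 0.27 without high MMP 2. The SKA complex, which helps NDC80 to hold on to shrinking microtubules, had all 3 genes higher with groups apart. *Ska1* (ENSMUSG00000036223, chromosome 18) had 450 and 427 against 415 and 407, a difference of 0.09 (SE 0.09; limma adjusted p 0.832). *Ska2* differed by 0.21 and *Ska3* by 0.30, and of the 3 only *Ska3* had an unadjusted p under 0.05 (0.0278 in limma).

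**Figure D2:**
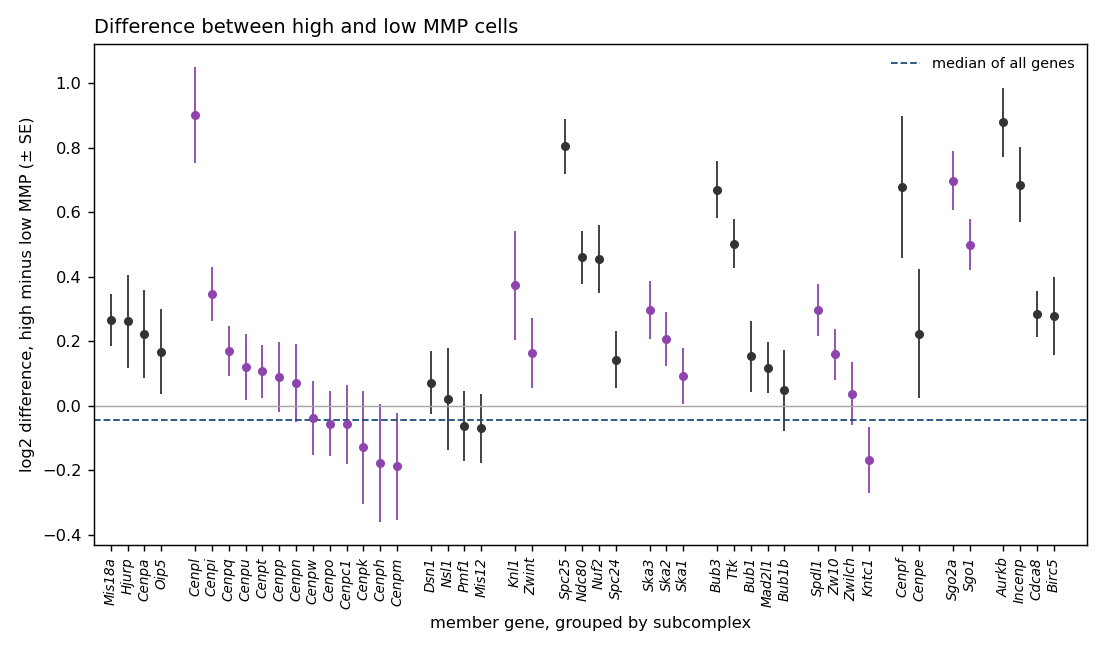
Difference between high and low MMP cells for each of the 47 genes, on the log2(value + 1) scale (y axis), grouped by subcomplex in alternating colors (x axis). Points are limma estimates from 2 against 2 samples, bars are ± 1 SE, and the dashed line is the median of all genes at -0.04. *Cenpl* at 0.90 and *Aurkb* at 0.88 stand highest, and *Kntc1*, *Cenph* and *Cenpm* lie lowest, at -0.17 to -0.19.

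The spindle checkpoint genes were all higher in high MMP cells, 4 of 5 with groups apart, with a median difference of 0.15 (0.28 without high MMP 1) and 2 at an unadjusted p under 0.05. *Bub3* (ENSMUSG00000066979, chromosome 7, 131560222 to 131571895, plus strand) had 4455 and 4367 normalized reads in high MMP 1 and 2 and 2639 and 2909 in low MMP 1 and 2. Both high MMP libraries were alike and far above both low MMP libraries. The means were 4411 ± 62.3 and 2774 ± 191 (SD, n = 2 each), a difference of 0.67 (SE 0.09; adjusted p 0.472 in limma and 0.000368 in DESeq2). *Ttk* (ENSMUSG00000038379, chromosome 9, 83834689 to 83872389, plus strand) had 1881 and 1975 against 1343 and 1377, a difference of 0.50 (SE 0.08; adjusted p 0.472 in limma and 0.0363 in DESeq2). The other checkpoint genes were closer to zero. *Mad2l1* (ENSMUSG00000029910, chromosome 6, 66535390 to 66547220, plus strand), which encodes the anaphase inhibitor MAD2, had 2478 and 2320 against 2194 and 2226, a difference of 0.12 (SE 0.08; limma adjusted p 0.740). *Bub1*, the kinase that marks centromeric histone H2A, differed by 0.15 (0.03 without high MMP 2), and *Bub1b*, which encodes BUBR1, by 0.05 with overlapping groups.

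The RZZ complex and its partner Spindly bring dynein to unattached kinetochores, with genes on both sides of zero. *Zw10* (ENSMUSG00000032264, chromosome 9, 49055613 to 49078775, plus strand) had 1184 and 1215 in high MMP 1 and 2 and 1111 and 1039 in low MMP 1 and 2, a difference of 0.16 (SE 0.08; limma adjusted p 0.645). *Kntc1* (ENSMUSG00000029414, chromosome 5, 123749716 to 123821593, plus strand), which encodes ROD, had 1341 and 1533 against 1670 and 1555. It was the only 1 of the 47 genes with both high MMP values below both low ones, and high MMP 2 and low MMP 2 were nearly level. It differed by -0.17 (SE 0.10; limma adjusted p 0.711), or by -0.07 without high MMP 1 and -0.27 without high MMP 2. *Zwilch*, the third subunit, differed by 0.04, and *Spdl1*, which encodes Spindly, by 0.30 (unadjusted p 0.0187 in limma).

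The fibrous corona genes *Cenpe* and *Cenpf* showed the widest gaps between the high MMP libraries. *Cenpe* (ENSMUSG00000045328, chromosome 3, 135212537 to 135273611, plus strand), which encodes the kinesin that carries chromosomes to the spindle equator, had 4253 and 5974 in high MMP 1 and 2 and 4645 and 4009 in low MMP 1 and 2. The groups overlapped, since high MMP 1 fell between the low MMP libraries. It differed by 0.22 (SE 0.20; limma adjusted p 0.811), and it stood at -0.02 without high MMP 2. *Cenpf*, a large coiled-coil protein that accumulates in G2, had 3995 and 6070 against 3055 and 3101, a difference of 0.68 (SE 0.22, unadjusted p 0.0349 in limma, adjusted p 0.0138 in DESeq2). Without high MMP 2 it stood at 0.38.

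The shugoshins protect centromeric cohesion and help to place the passenger complex, and both genes were higher in every high MMP library. *Sgo2a* (ENSMUSG00000026039, chromosome 1, 57995971 to 58025899, plus strand) had 2213 and 2315 normalized reads in high MMP 1 and 2 and 1322 and 1470 in low MMP 1 and 2. *Sgo1* (ENSMUSG00000023940, chromosome 17, 53674786 to 53689333, minus strand) had 1848 and 1973 against 1367 and 1335. In both genes the gap between the groups exceeded the gap between replicates. *Sgo2a* differed by 0.70 (SE 0.09; adjusted p 0.472 in limma and 0.000432 in DESeq2), and *Sgo1* by 0.50 (SE 0.08) with 0.472 and 0.0412 in the same tests. *Sgo2a* has a close copy, *Sgo2b*, that was not analysed here, and it shares 2455 exonic bases with *Kctd18* on the opposite strand (difference -0.17), so its level is less certain than the others.

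The chromosomal passenger complex consists of the kinase Aurora B, the scaffold INCENP, and survivin and borealin, which bring the complex to the centromere. All 4 genes were higher with groups apart, 3 of them at an unadjusted p under 0.05, and the median difference was 0.49. *Aurkb* (ENSMUSG00000020897, chromosome 11, 69045647 to 69051664, plus strand) had 2885 and 2829 normalized reads in high MMP 1 and 2 and 1435 and 1681 in low MMP 1 and 2. The high MMP libraries nearly coincided, well above both low MMP libraries. The means were 2857 ± 39.1 and 1558 ± 174 (SD, n = 2 each), a ratio of 1.83 and a difference of 0.88 (SE 0.11; adjusted p 0.472 in limma and 2.63e-06 in DESeq2). *Incenp* (ENSMUSG00000024660, chromosome 19, 9872296 to 9899551, minus strand) had 5190 and 6011 against 3309 and 3644, a difference of 0.69 (SE 0.12; adjusted p 0.472 in limma and 0.000432 in DESeq2). *Cdca8*, which encodes borealin, differed by 0.28 (unadjusted p 0.0154 in limma), and *Birc5*, which encodes survivin, by 0.28 (unadjusted p 0.0776 in limma). *Birc5* stood at 0.19 without high MMP 1 and at 0.37 without high MMP 2. Per kilobase of principal transcript, *Birc5* had the highest mean level of the 4, at 3650, against 1510 for *Cdca8*, 1400 for *Incenp* and 1170 for *Aurkb*. The differences between subcomplexes were not tested.

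Ratios of gene pairs from the same subcomplex were set side by side within each library. A ratio within a library does not depend on the scaling between libraries, and the 5 pairs were chosen after the values were seen, so they are given without a test. *Spc25* over *Spc24* was 0.538 and 0.554 in high MMP 1 and 2 and 0.339 and 0.351 in low MMP 1 and 2. *Aurkb* over *Birc5* was 0.717 and 0.795 against 0.494 and 0.501. In both, replicates lay close together and the groups were well apart. Each pair sets a gene with a larger difference over a gene with a smaller one. A higher ratio in high MMP cells thus follows from the choice of pairs. *Cenpl* over *Cenpn* was 0.564 and 0.868 against 0.374 and 0.411, and *Bub3* over *Bub1* was 1.68 and 1.39 against 1.01 and 1.13, with a wider gap between the high MMP libraries. *Sgo2a* over *Sgo1* was 1.20 and 1.17 against 0.967 and 1.10, where the groups were only just apart.

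**Figure D3:**
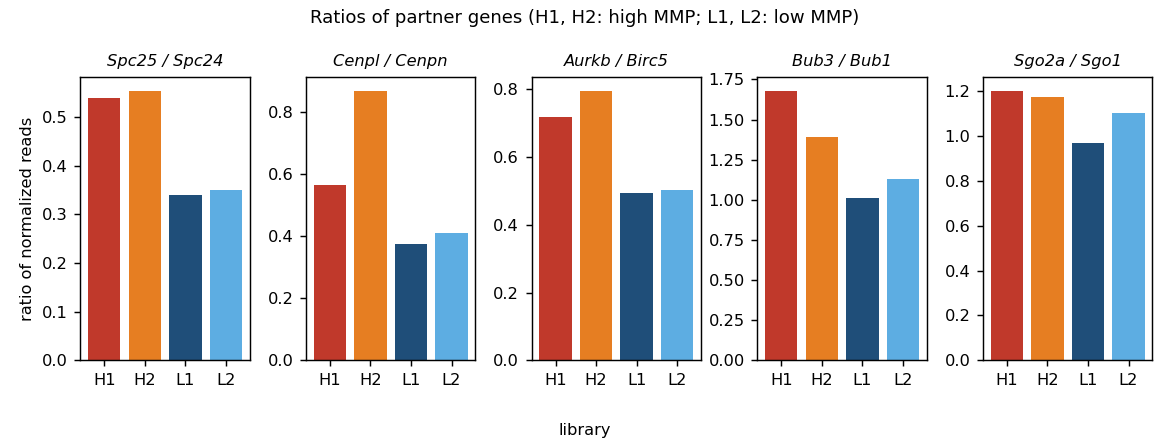
Ratio of normalized reads of 5 pairs of genes from the same subcomplex (y axis, from 0, a separate scale for each pair) in the 4 libraries (x axis), 1 bar per library with no error bars. H1 and H2 are high MMP 1 and 2, L1 and L2 are low MMP 1 and 2. *Spc25* over *Spc24* is 0.538 and 0.554 in high and 0.339 and 0.351 in low MMP cells. Both high MMP bars exceed both low MMP bars in each of the 5 pairs, which were chosen after the values were seen.

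The replicates of high MMP cells differed with transcript length. Across the 47 genes, which are not independent replicates, the log2 difference of high MMP 2 over high MMP 1 had a Pearson r of 0.686 with the log2 length of the principal transcript, and over the 11373 genes of known length that averaged 10 or more it was 0.331. For low MMP 2 over low MMP 1 these values were -0.285 and -0.178. Of the 9 genes with at least 4000 bases, 7 were higher in high MMP 2 than in high MMP 1 (median 0.19), against 14 of the 38 shorter ones (median -0.05). *Cenpf* at 0.60, *Cenpe* at 0.49, *Knl1* at 0.41 and *Hjurp* at 0.34 stood above zero, as did the shorter *Cenpa* and *Cenpl*, both at 0.34, while the short *Cenph* and *Cenpk* stood at -0.44 and -0.42. The difference between high and low MMP cells had an r of 0.145 with length over the 47 genes and -0.011 over the 11373. The part of length in the single results was not tested.

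**Figure D4:**
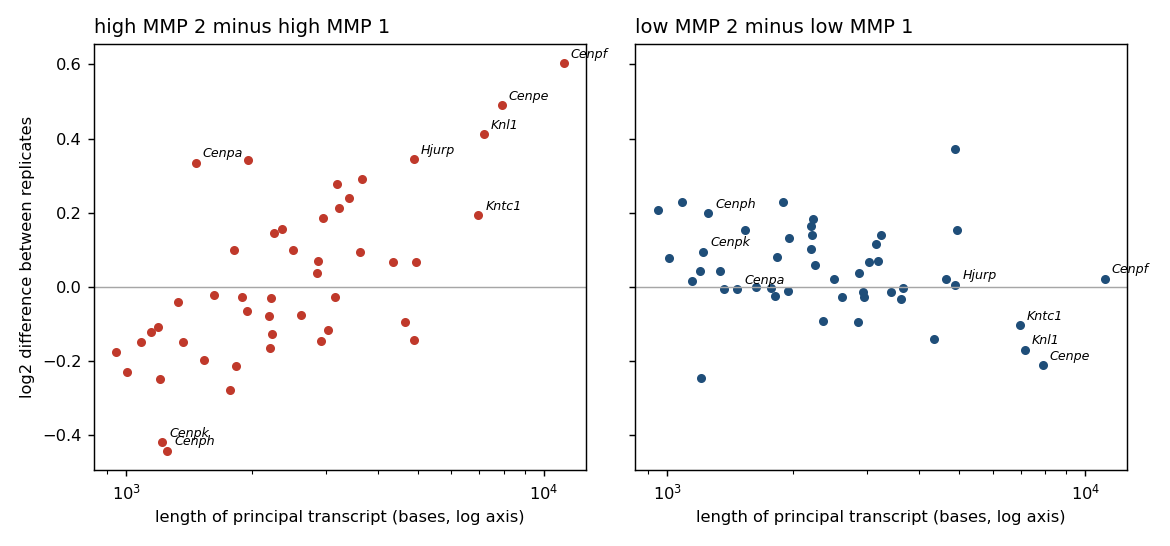
Log2 difference between replicates (y axis) of high MMP cells (left) and low MMP cells (right) against the length of the principal transcript in bases (x axis, log scale), 1 point per gene for the 47 genes. In high MMP cells the points climb from *Cenph* at -0.44 to *Cenpf* at 0.60, with r = 0.686, and in low MMP cells they run the other way with r = -0.285.

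Other genes of the pathway gave a mixed picture. From a list of 32 further kinetochore genes, 20 were higher and 12 lower in high MMP cells, with a median difference of 0.08. At an unadjusted p under 0.05 in limma, 6 were higher (3.95% of all genes were) and 1 lower (6.01% of all genes). Among the higher ones were *Kif18a* (0.93), a kinesin that damps chromosome movement, *Plk1* (0.63), a mitotic kinase, *Haspin* (0.51), which marks histone H3 for the passenger complex, *Kif2c* (0.49), a kinesin that removes microtubule ends, and *Clasp1* (0.28), which stabilizes them. The lower one was *Cenps* (-0.45), a CCAN subunit also known from DNA repair. Of the genes named here, DESeq2 called *Kif18a*, *Plk1* and *Kif2c*, and no gene of the 32 passed an adjusted p of 0.05 in limma.

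The overlap with general cell cycle lists was counted, because these lists differ between the groups. The G2/M-phase list of the Seurat package holds 11 of the 47 genes. All 11 were higher in high MMP cells, 10 with groups apart and 6 at an unadjusted p under 0.05, with a median difference of 0.28. The remaining 43 genes of that list had 39 higher, 24 at an unadjusted p under 0.05 and a median of 0.33. The S-phase list holds *Cenpu* alone (0.12), while 41 of its remaining 42 genes were lower in high MMP cells, with a median of -0.36. Of the 35 genes in neither list, 26 were higher, 20 with groups apart, 10 had an unadjusted p under 0.05 and DESeq2 called 6, with a median of 0.12. Of all genes, 13.5% were higher with groups apart and 3.95% were higher at an unadjusted p under 0.05 in limma. DESeq2 called 0.663% of the genes with an adjusted p as higher. The part of cell cycle phase in these differences was not tested.

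The promoter motifs were then counted over all 47 genes, of which 41 had a RefSeq promoter, with 45 windows in all. A CHR was found in 24 of the 45 windows (53.3%), beside 19.2% of the 32851 RefSeq windows of the same length. CCAAT was found in 33 (73.3%, beside 37.4%) and an E2F core in 12 (26.7%, beside 6.81%), and 19 windows held both a CHR and a CCAAT (42.2%, beside 7.52%). A CHR within 50 bases of the start, a limit set after the positions were seen, was in 18 windows (40.0%, beside 5.31%). Windows of the genes with an unadjusted p under 0.05 had a CHR in 12 of 16 (75.0%), and those of the other genes in 12 of 29 (41.4%). The reverse complement of CCAAT can overlap the E2F core TTGGCGC, some genes have several windows, and those of *Bub3* overlap and share their motifs. A match is a run of letters, not a measured binding site. Within 50 bases of the start, a CHR was in 9 of the 16 windows of genes with an unadjusted p under 0.05 (56.2%). It was in 9 of the 29 windows of the other genes (31.0%), among them those of *Kntc1*, *Bub1b* and *Cenpw*. Of the genes with an unadjusted p under 0.05, *Sgo2a*, *Cenpi* and *Nuf2* had no CHR in their windows.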

How the data were processed

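RNA-sequencing was available for 4 samples of sorted 4T1 cells, 2 of high MMP and 2 of low MMP, grouped by their titles. Per the labels and the methods of the study, the authors aligned stranded, paired reads to GRCm38 (mm10) with STAR, with HTSeq also named, and counted them per gene. Counts were scaled to the library total, and only genes seen in 2 or more samples were kept. Versions, the annotation release, the strand setting and the rule for multi-mapping reads are not given in the sources used here. The deposited values are a normalized signal per gene, each column summing to 20000000, and 0 columns belonged to no sample. All values (100.0%, within 0.05 of a whole number) were whole multiples of 1 step per library (0.758 to 0.885), which recovered the reads.

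Of the gene identifiers, 19993 of 20197 matched a symbol in GENCODE M21. On log2(value + 1), limma 3.58.1 (eBayes with trend, R 4.3.3) was run over all genes with the sorted group as single factor, two-sided, with Benjamini-Hochberg adjustment over all genes. A difference on this scale understates changes of low genes. Alternatives were other pseudocounts (0.5 and 10), a minimum mean of 10, median-of-ratios scaling, quantile normalization, no trend, a replicate block, each library left out, and edgeR 4.0.16 (quasi-likelihood, TMM) and DESeq2 1.42.0 on the recovered reads. The fits were tested on simulated data. Principal transcripts are those tagged by APPRIS, and promoters are from RefSeq GRCm38.p6.

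The 47 genes, their 11 subcomplexes and the other lists were chosen with earlier results of these data known, so no test over a list is given. Full values are given for the 8 higher and 4 lower genes of smallest limma p and for 1 fixed gene per subcomplex, 21 genes in all. Some genes of these lists are counted but not reported here by name. Genes named for other reasons were chosen after their values were seen.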

Additional observations from a re-analysis of the deposited data

How the results depend on the processing

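No gene of the 47 passed an adjusted p of 0.05 under any limma alternative or under edgeR without a block, where the smallest adjusted p among them ran from 0.104 (genes averaging 10 or more) to 0.9 (without low MMP 2). DESeq2 called 9. Same-numbered samples did not deviate together (correlation of deviations -0.421 over the 12902 genes averaging 10 or more), and although the study counts the samples of a group as independent experiments, no source used here says that a number marks 1 experiment in both groups. The replicate block is therefore given here only. With the replicate block, edgeR called 4 (106 of all genes) and limma 0, with 11 at an unadjusted p under 0.05 (1055 of all genes, in either direction). With crossed numbers as the block, a fit chosen after seeing the data, edgeR called 13 (733 of all genes) and limma 0. The count higher at an unadjusted p under 0.05 was 10 with no trend and 7 to 21 with 1 library left out. Genes lower without overlap numbered 0 with median-of-ratios scaling and 3 to 8 with 1 library left out. Genes higher without overlap numbered 33 to 36 with 1 library left out. Fewer samples separate more easily, and shares of all genes with a library left out are not given. Counts without overlap with 1 library left out are thus not comparable with those from all libraries. The median difference of 0.17 was 0.21 with median-of-ratios scaling and with DESeq2, 0.20 with quantile normalization, 0.20 with edgeR, and 0.17 to 0.20 with 1 library left out. The sign turned with 1 library left out for *Cenph* (-0.40 to 0.044), *Cenpk* (-0.34 to 0.082), *Cenpc1* (-0.20 to 0.08), *Mis12* (-0.15 to 0.013, with 0.012 without low MMP 2) and *Cenpe* (-0.021 to 0.47). Among genes given by their difference alone, it turned for *Cenpn* and *Nsl1* without high MMP 1, for *Cenpw*, *Pmf1*, *Dsn1*, *Bub1b* and *Zwilch* without high MMP 2, for *Cenpo* and *Nsl1* without low MMP 1 and for *Cenpw* without low MMP 2. In such fits the lone sample is assumed to vary like the other group. Leaving out 1 library also moved small differences that kept their sign, as for *Cenpu* (0.05 to 0.19), *Cenpp* (0.03 to 0.15), *Oip5* (0.05 to 0.28) and *Mad2l1* (0.07 to 0.17). The other directions of the 21 genes given in full held under every alternative. Precision is limited by 2 samples per group and, for the genes with fewest reads (down to 166 in a library), also by counting error, which was not separated from the spread between samples.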
